A study of Mus musculus with 24 samples.

Results

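Glycolysis and the genes that low oxygen induces were followed in cultured mouse amniotic cells, in endothelial-like cells made from them and in endothelial cells (ECs) of lung and liver. The set held 40 genes, named by symbol, out of 22282 genes measured. It covered glucose uptake, the steps from glucose to pyruvate, the Pfkfb enzymes that set phosphofructokinase activity, lactate formation, lactate export, the Hif factors with their prolyl hydroxylases, and other hypoxia-induced genes. Of the 40, 39 had a mean FPKM of at least 1 over all libraries and were tested. The exception was Hif3a, a Hif alpha subunit, listed at 0 in all 3 libraries of the Sox17-RACVEC, Akt-LEC and LSEC groups and never above 5.14 FPKM.

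Messenger RNA of 24 libraries was sequenced, 3 in each of 8 groups of C57BL/6J mice. MACs, mouse amniotic cells from E11.5 to E13.5 embryos, carried no added factor, and Akt-MACs were MACs with a lentivirus for constitutively active myristoylated Akt. RACVECs were amniotic cells converted with lentiviral Etv2, Erg and Fli1 under EC culture conditions with an inhibitor of TGF-beta signalling, Akt-RACVECs carried myristoylated Akt as well, and Sox17-RACVECs carried mouse Sox17 in place of Akt. Akt-LECs and Akt-liver ECs were lung and liver ECs kept in culture with myristoylated Akt. LSECs were liver ECs sorted straight from the organ, with neither culture nor a transgene. Values were FPKM (fragments per kilobase of transcript, here scaled between libraries by upper-quartile normalization). They were summed over the RefSeq transcripts of a gene, so levels of different genes can be set side by side per length. The value columns of the files are headed with codes of the authors that differ in form within groups, and that of RACVEC 3 names Flk1 and GFP+ where those of RACVEC 1 and RACVEC 2 name EEF. What the codes stand for is not given in the sources used here, and each file was taken as the sample that GEO lists it under.

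Glycolysis splits glucose into pyruvate, and lactate dehydrogenase turns pyruvate into lactate, which leaves the cell through monocarboxylate transporters. Endothelial cells are known for making much of their ATP this way even with oxygen at hand. When oxygen falls, prolyl hydroxylases (Egln genes) no longer mark the Hif alpha subunits for destruction, and Hif with Arnt then binds hypoxia response elements at many genes of this set, among them Slc2a1, Pgk1, Ldha, Pdk1 and Egln3 itself. The kinase Akt, which acts downstream of growth factor receptors, is known to promote glucose uptake and hexokinase activity, in part without any change in mRNA.

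Some libraries carried RNA of other cell types. Summed over the 6 hepatocyte markers listed, LSECs held 2129 to 12290 FPKM and Akt-liver ECs 0 to 53.0 FPKM. The 5 macrophage markers found in the files, out of 6 listed, summed to 10300 to 16650 FPKM in LSECs, 811 to 35490 FPKM in Akt-MACs and 0.79 to 14.7 FPKM in MACs. In Akt-liver ECs 1, 2 and 3 the macrophage markers summed to 956, 2.19 and 0 FPKM. Elsewhere their sum reached 1309 FPKM in Akt-LEC 1, 916.5 FPKM in Sox17-RACVEC 1, 304.3 FPKM in RACVEC 2 and 152.8 FPKM in Akt-RACVEC 1. The part of macrophage RNA in the comparisons of those groups was not tested. The 3 red blood cell markers found, of 4 listed, summed to 28700 to 32860 FPKM in LSECs and at most 1.07 FPKM in Akt-liver ECs. Skeletal muscle markers (5 listed) reached 1204 FPKM in Akt-liver EC 1 and neural markers (4 listed) reached 1053 FPKM in MAC 3. The 5 adipocyte markers summed to 30.7 to 13880 FPKM in MACs, 2177 to 33550 FPKM in Akt-liver ECs and 3672 to 5459 FPKM in LSECs. In Akt-liver EC 3 that sum was Fabp4 alone, which endothelium is also known to express, while Adipoq and Plin1 stood at 1100.0 and 283 FPKM in MAC 2 and at most 26.7 and 15.8 FPKM elsewhere. The 6 endothelial markers were above 1 FPKM in every RACVEC-type and EC library, and they summed to 8.11 to 28.2 FPKM in MACs. The 4 liver sinusoidal markers listed summed to 2322 to 7289 FPKM in Akt-liver ECs and 35560 to 48060 FPKM in LSECs. Akt1, the Akt gene whose product the transgene carries in active form, read 692, 551 and 666 FPKM in MACs and 1117, 1279 and 848 FPKM in Akt-MACs. In RACVECs Akt1 stood at 607, 694 and 644 FPKM, against 1280.5, 872 and 920.4 FPKM in Akt-RACVECs. Averaged over both backgrounds, Akt1 had a log2 fold change of 0.69 (SE 0.16, adjusted p = 0.0369), short of the limit of 1 used for a call. Sox17-RACVECs, which carry no Akt transgene, read 884, 1323 and 916 FPKM, also above every RACVEC library, with a log2 fold change of 0.66 (SE 0.23, adjusted p = 0.563), so the Akt1 level is no check of the transgene.

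The main difference lay between cultured and purified liver endothelium. Akt-liver ECs held more mRNA than LSECs of the glucose transporter Slc2a1, of both hexokinases and of most enzymes from aldolase to pyruvate kinase, and more of the lactate exporter Slc16a3 and the prolyl hydroxylase Egln3. Calls required an adjusted p under 0.05 together with a log2 difference beyond 1 in size. Of the 39 members tested, 13 were called higher in the cultured cells, beside 14.1% of all genes. The only member called lower was Epas1, beside 12.9% of all genes. The median log2 fold change was 0.76 over the members and 0.08 over the 14964 genes tested. The fit was limma on log2(FPKM + 1) over all 24 libraries, two-sided, with Benjamini-Hochberg adjustment over all genes tested. Organ of residence was shared, but the way of isolation, culture, medium and the Akt transgene all separated the groups and cannot be told apart. By the study's methods, Akt-liver ECs were caught with anti-CD31 beads and sorted again in culture. LSECs were sorted after intravital labelling with anti-VEcad and isolectin. In bulk RNA, fewer cells of a type and less RNA per cell cannot be told apart either.

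Of the 2 glucose transporters, 1 differed. Slc2a1 (Glut1), the carrier of basal glucose uptake in many cell types, read 390.1, 419 and 456 FPKM in Akt-liver ECs and 12, 16.4 and 16.1 FPKM in LSECs. The groups did not overlap, and the lowest of the 21 cultured libraries, MAC 2, stood at 121 FPKM. The difference was 26.9-fold, a log2 fold change of 4.75 (SE 0.52, adjusted p = 1.14e-06). Slc2a3 (Glut3), a transporter of high affinity best known from neurons, read 10.6, 4.32 and 4.84 FPKM in Akt-liver ECs and 12.2, 9.11 and 6.9 FPKM in LSECs. These ranges overlapped, and Slc2a3 was not called, with a log2 fold change of -0.52 (SE 0.93, adjusted p = 0.712).

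Of the 6 genes that carry glucose to fructose 1,6-bisphosphate, 3 were called higher, beside 14.1% of all genes. Hk2, the inducible hexokinase, read 79.8, 49.5 and 90.1 FPKM in Akt-liver ECs and 12.6, 16.2 and 9.0 FPKM in LSECs, with a log2 fold change of 2.44 (SE 0.49, adjusted p = 0.00092). Hk1, the hexokinase found in most tissues, stood at 324, 426 and 357 FPKM against 132, 124 and 120.4 FPKM and had a log2 fold change of 1.54 (SE 0.42, adjusted p = 0.00884). All 3 cultured libraries lay above all LSEC libraries for both hexokinases. Pfkl, the liver-type phosphofructokinase, read 219.8, 364 and 506 FPKM against 103, 102 and 106 FPKM, again without overlap, with a log2 fold change of 1.72 (SE 0.37, adjusted p = 0.00167). The muscle-type subunit Pfkm reached 0.89 (SE 0.38, adjusted p = 0.0776), and the platelet-type subunit Pfkp reached -0.26 (SE 0.74, adjusted p = 0.826). Gpi1, which turns glucose 6-phosphate into fructose 6-phosphate, had a log2 fold change of 0.68 (SE 0.34, adjusted p = 0.131). None of the last 3 was called.

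The Pfkfb enzymes make and break fructose 2,6-bisphosphate, a strong activator of phosphofructokinase. Of the 4, 0 were called in either direction, beside 14.1% of all genes higher and 12.9% lower. Under the unadjusted limma p below 0.05 with the fold limit the count was 0 as well, beside 16.4% of all genes higher and 14.8% lower. Under the criterion of the study's methods it was also 0, beside 6.7% higher and 11.4% lower. Their log2 fold changes ran from -0.39 for Pfkfb2 to 0.25 for Pfkfb3, the isoform of high kinase activity in endothelium. Pfkfb3 read 65.4, 61 and 123 FPKM in Akt-liver ECs and 71.2, 62.8 and 64.5 FPKM in LSECs, and its 95% interval ran from -0.93 to 1.44 on the log2 scale. Pfkfb1 and Pfkfb4 had log2 fold changes of 0.05 and -0.22.

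From aldolase to pyruvate, 7 of 9 members were called higher, beside 14.1% of all genes. Aldoa, the main aldolase here, read 2619, 2306 and 3533 FPKM against 808, 782 and 545 FPKM in LSECs, with a log2 fold change of 1.98 (SE 0.28, adjusted p = 2.33e-05). Tpi1, triosephosphate isomerase, read 905, 610.3 and 1155 FPKM against 252, 229 and 320.4 FPKM, with a log2 fold change of 1.7 (SE 0.33, adjusted p = 0.000644). For Aldoa and Tpi1 every Akt-liver EC library stood above every LSEC library. Pgk1, the first step that yields ATP, read 518, 243 and 623 FPKM against 73.7, 67.3 and 73.4 FPKM, with a log2 fold change of 2.57 (SE 0.44, adjusted p = 0.000208). Pgam1, a phosphoglycerate mutase, read 547, 424 and 676 FPKM against 99.6, 83 and 87 FPKM, with a log2 fold change of 2.58 (SE 0.36, adjusted p = 2.17e-05). Pkm, the pyruvate kinase of most tissues, read 2548, 2474 and 3064 FPKM against 810.5, 882 and 892 FPKM, with a log2 fold change of 1.64 (SE 0.39, adjusted p = 0.00318). These groups did not overlap either, and the LSEC values of each gene lay close together.

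Of the enolases, Eno1 read 159.8, 40.2 and 50.6 FPKM in Akt-liver ECs and 17.2, 18.8 and 13.46 FPKM in LSECs, with a log2 fold change of 2.01 (SE 0.6, adjusted p = 0.0149). Akt-liver EC 1 was the highest, and without it Eno1 was not called, at a log2 fold change of 1.41 (adjusted p = 0.0926). Leaving out LSEC 3 also ended the call (adjusted p = 0.0537), as did a replicate block with only these groups in the fit (adjusted p = 0.073). Reads of Eno1 may be shared with its near-identical copy Eno1b, so its level is uncertain. Eno1b read 1361, 879 and 1497 FPKM against 199, 189 and 194 FPKM. Eno2, the neuronal enolase, read 8.67, 2.49 and 7.05 FPKM in Akt-liver ECs and was listed at 0 in all 3 LSEC libraries, so no fold change is given. It was called (adjusted p = 0.0358), and the call was lost with a pseudocount of 10 and when any 1 of LSEC 1, LSEC 2, LSEC 3, Akt-liver EC 1 or Akt-liver EC 3 was left out (adjusted p from 0.0772 to 0.105). The muscle enolase Eno3 reached 167 FPKM in Akt-liver EC 1, the library with skeletal muscle markers, and 11.9 and 5.77 FPKM in the other two. Neither Eno3 (0.21 (SE 0.96, adjusted p = 0.905)) nor the brain aldolase Aldoc (0.65 (SE 1.12, adjusted p = 0.703)) was called.

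**Figure D1:**
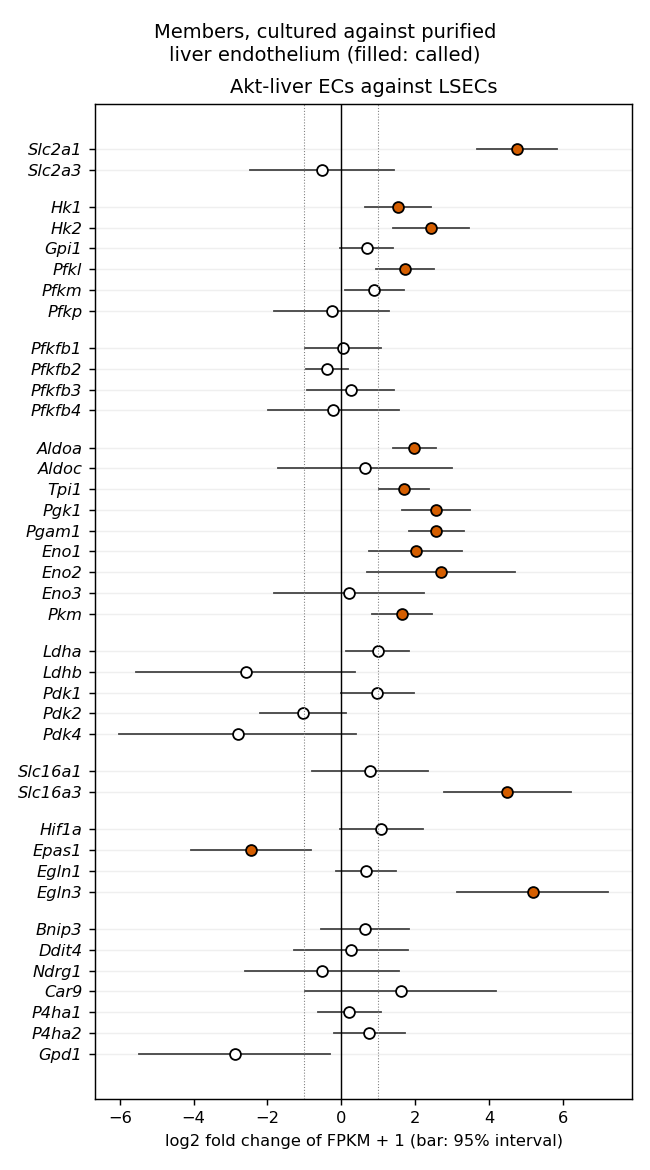
Log2 fold change of FPKM + 1 (x axis) of the 39 members tested, Akt-liver ECs against LSECs, grouped by role from glucose transport at the top to other hypoxia-induced genes at the bottom; bars are 95% intervals, filled points were called and dotted lines mark the limits of 1 and -1. The 13 filled points on the right include Egln3 at 5.18 and Slc2a1 at 4.75, and the 1 on the left is Epas1 at -2.46.

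At the step after pyruvate, 0 of 5 genes were called by limma, beside 14.1% of all genes higher and 12.9% lower. The unadjusted p with the fold limit also gave 0, beside 16.4% higher and 14.8% lower. The study's criterion gave 0 as well, beside 6.7% and 11.4%. Ldha, the lactate dehydrogenase subunit that favours lactate formation, read 1926, 1125 and 2404 FPKM in Akt-liver ECs and 861, 777 and 1002 FPKM in LSECs. The groups did not overlap, but Akt-liver EC 2 stood near the LSECs, and Ldha had a log2 fold change of 0.99 (SE 0.4, adjusted p = 0.0673). Without Akt-liver EC 2 it was called at 1.3 (adjusted p = 0.0320). Ldhb, the other subunit, read 107, 14.8 and 9.66 FPKM against 152, 144 and 176 FPKM, with a log2 fold change of -2.59 (SE 1.41, adjusted p = 0.168). Akt-liver EC 1 came nearest to the LSECs for Ldhb, and the other two lay far below. The pyruvate dehydrogenase kinases Pdk1, Pdk2 and Pdk4, which hold pyruvate out of the citric acid cycle, had log2 fold changes of 0.98, -1.04 and -2.81, with adjusted p between 0.119 and 0.165. Pdk4 read 144, 17.4 and 1.94 FPKM against 121, 89 and 247 FPKM and was called lower only without Akt-liver EC 1 (adjusted p = 0.0495).

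Of the lactate carriers, Slc16a3 (Mct4), known as the exporter of strongly glycolytic cells, read 140.1, 224 and 378 FPKM in Akt-liver ECs and 7.63, 7.1 and 13.8 FPKM in LSECs, a 22.6-fold difference with a log2 fold change of 4.5 (SE 0.81, adjusted p = 0.000359). Slc16a1 (Mct1), which carries lactate both ways, read 88.7, 26.7 and 63.5 FPKM against 30, 24 and 40 FPKM. The ranges overlapped and Slc16a1 was not called, with a log2 fold change of 0.78 (SE 0.75, adjusted p = 0.457).

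Egln3 and Epas1, both genes of oxygen sensing, differed in opposite directions. Egln3 (Phd3), the prolyl hydroxylase most strongly induced by hypoxia, read 64, 262 and 471 FPKM in Akt-liver ECs and 4.09, 3.51 and 6.36 FPKM in LSECs, with a log2 fold change of 5.18 (SE 0.97, adjusted p = 0.000514). Every cultured library, from 32.6 FPKM in MAC 1 upward, exceeded every LSEC library. Epas1 (Hif2 alpha), the subunit first known from endothelium, read 249, 65.3 and 74.1 FPKM in Akt-liver ECs and 628, 678 and 484 FPKM in LSECs, with a log2 fold change of -2.46 (SE 0.78, adjusted p = 0.0197). Akt-liver EC 1 stood above the other two, and no value reached the LSECs. The call of Epas1 was lost when any 1 of Akt-liver EC 2, Akt-liver EC 3, LSEC 1 or LSEC 2 was left out (adjusted p from 0.0556 to 0.0777). Hif1a, the other main alpha subunit, read 450.1, 365 and 462 FPKM against 236, 159 and 208 FPKM without overlap, and was not called at 1.09 (SE 0.53, adjusted p = 0.122). With only these groups in the fit it was called (adjusted p = 0.0109, or 0.0209 with a replicate block). Egln1, the hydroxylase that sets Hif levels in normal oxygen, had a log2 fold change of 0.67 (SE 0.39, adjusted p = 0.193).

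Among the 7 other hypoxia-induced genes limma called 0, beside 14.1% of all genes higher and 12.9% lower. Only 1 of them, Gpd1, passed the unadjusted p with the fold limit, beside 16.4% of all genes higher and 14.8% lower. It alone also passed the study's criterion, beside 6.7% higher and 11.4% lower. Gpd1, which links glycolysis to glycerol 3-phosphate, read 14.9, 0.73 and 0.74 FPKM in Akt-liver ECs and 21.3, 20.8 and 39 FPKM in LSECs, with a log2 fold change of -2.89 (SE 1.23, adjusted p = 0.078). Akt-liver EC 1 lay near the LSECs, and without it Gpd1 was called lower at -3.95 (adjusted p = 0.0281). The carbonic anhydrase Car9 had a log2 fold change of 1.61 (SE 1.23, adjusted p = 0.336), from 13 to 22.6 FPKM in Akt-liver ECs and 3.74 to 5.08 FPKM in LSECs. Car9 was called with only these groups in the fit (adjusted p = 0.0136). Log2 fold changes of the mitophagy receptor Bnip3, the mTORC1 inhibitor Ddit4, the stress-response gene Ndrg1 and the collagen prolyl hydroxylases P4ha1 and P4ha2 lay between -0.52 and 0.76.

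Without Akt-liver EC 1 and LSEC 3, the libraries highest in muscle and in hepatocyte markers, 11 members remained called higher and Epas1 lower, with Eno1 and Eno2 no longer called. The criterion of the study's methods gave 7 members higher, with Hif1a among them, beside 6.7% of all genes, and 2 lower, Epas1 and Gpd1, beside 11.4%. Macrophage, hepatocyte and red blood cell RNA lay in all 3 LSEC libraries, and their part in the differences was not tested. Cdh5 (VE-cadherin), which defines endothelium, read 2591, 4131 and 2295 FPKM in Akt-liver ECs and 2928, 2338 and 1805 FPKM in LSECs, with a log2 fold change of 0.33 (SE 0.48, adjusted p = 0.641). Cdh5 is 1 of the 6 endothelial markers listed. Together the 6 summed to 7494 to 10760 FPKM in Akt-liver ECs and to 11730 to 14580 FPKM in LSECs, without overlap. The 5 proliferation markers summed to 188.0 to 1043 FPKM in Akt-liver ECs and 38.7 to 182 FPKM in LSECs, and their part was not tested.

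LSECs stood apart from every cultured group, not from Akt-liver ECs alone. For 16 of the 39 members all 3 LSEC libraries lay below all 21 cultured libraries, beside 9.17% of all genes, and for 0 members all 3 lay above, beside 9.64%. The 16 were Slc2a1, Hk2, Gpi1, Pfkl, Pfkm, Aldoa, Tpi1, Pgk1, Pgam1, Pkm, Ldha, Pdk1, Slc16a3, Egln1, Egln3 and P4ha2. The lowest cultured library exceeded the highest LSEC library by as little as 1.06-fold in Pdk1, 1.11-fold in Gpi1 and 1.12-fold in Ldha, and by 5.12-fold in Egln3 and 7.37-fold in Slc2a1. Without LSEC 3, Epas1 lay above all cultured libraries. Summed over the 15 members that encode the steps from glucose to pyruvate, mRNA made up 0.108% to 0.132% of the summed FPKM of LSECs and 0.425% to 0.546% of that of Akt-liver ECs. Across all cultured libraries the share ran from 0.330% in MAC 2 to 0.890% in Akt-RACVEC 2.

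**Figure D2:**
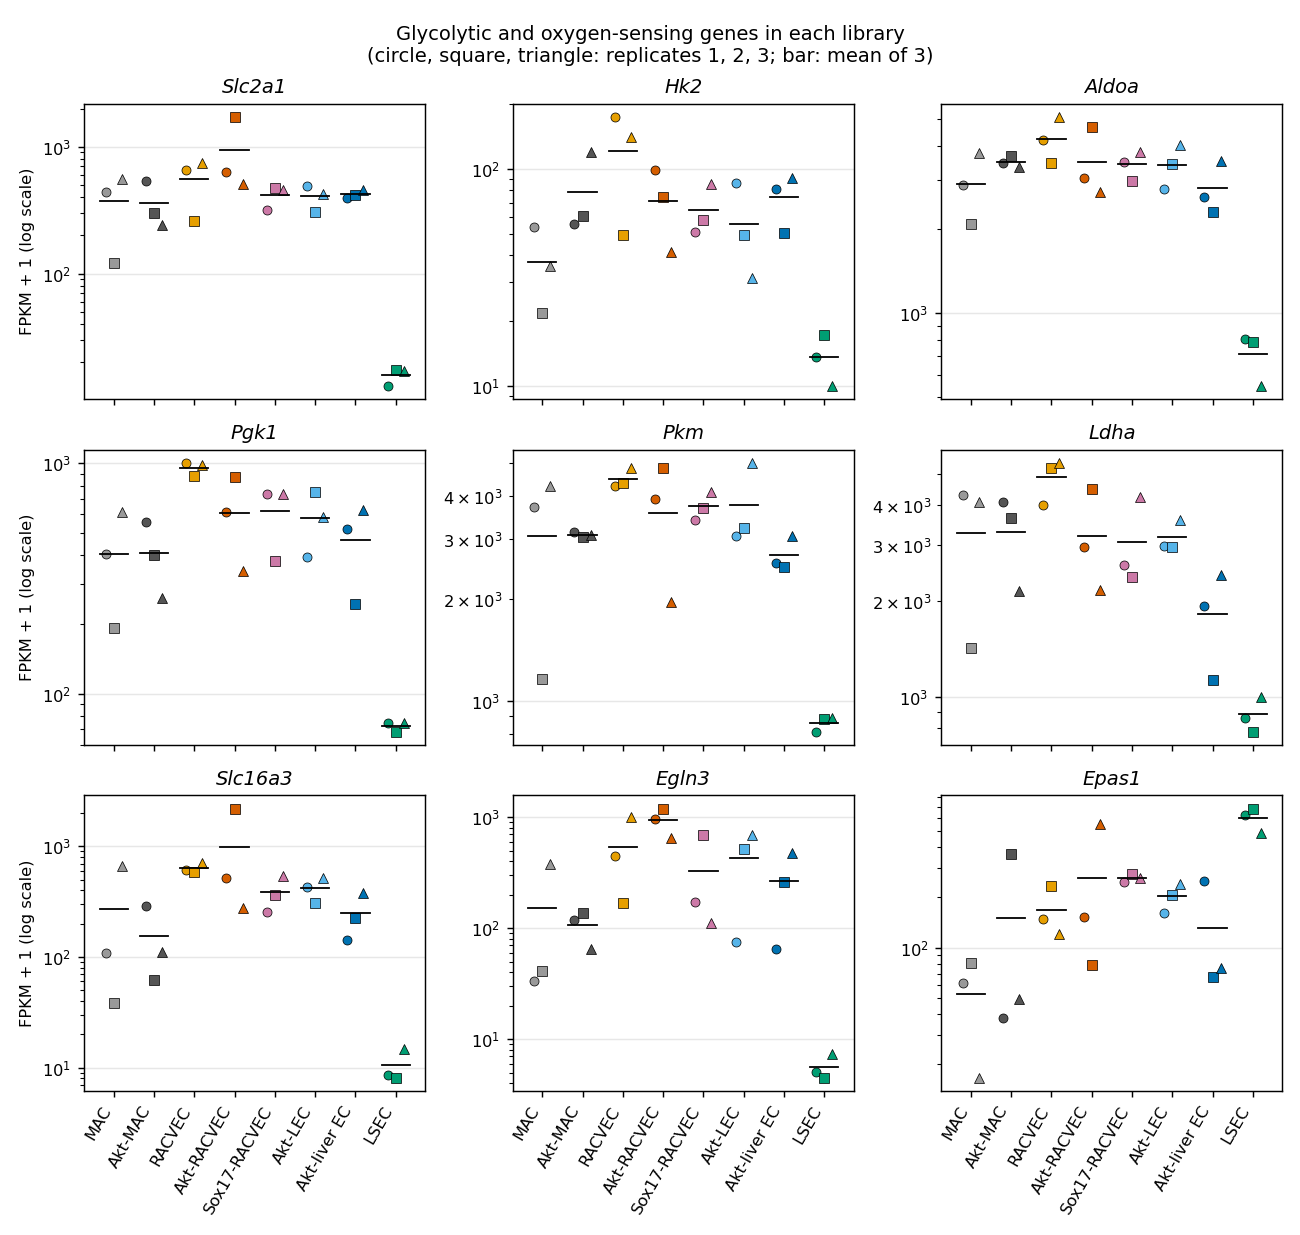
FPKM + 1 on a log scale (y axis) of 9 members in each of the 24 libraries, by group (x axis); points are libraries and bars are means of 3. For every gene but Epas1 the LSEC points lie lowest, with Slc2a1 at 12 to 16.4 FPKM there against 121 to 1711 FPKM in cultured libraries.

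The balance between family members in LSECs was set beside that in Akt-liver ECs. Of the FPKM of Slc2a1 and Slc2a3 together, Slc2a1 held 61.3% ± 10.5 (SD, n = 3) in LSECs and 98.4% ± 0.93 in Akt-liver ECs. Slc16a3 held 22.9% ± 2.74 of the lactate carrier mRNA in LSECs and 78.7% ± 15.3 in Akt-liver ECs. Ldhb made up 15.2% ± 0.41 of lactate dehydrogenase mRNA in LSECs and 2.32% ± 2.58 in Akt-liver ECs. Of the Hif alpha mRNA, Hif1a was 25.5% ± 5.76 in LSECs and 78.4% ± 12.2 in Akt-liver ECs, so that, by group means, Epas1 was the larger part in LSECs alone. Pdk1 was 20.2% ± 3.97 of pyruvate dehydrogenase kinase mRNA in LSECs, where Pdk4 was the larger part with 57.2% ± 12.1. Pfkp was 34.5% ± 2.3 of phosphofructokinase mRNA in LSECs and 14.4% ± 9.48 in Akt-liver ECs. The shares are descriptions, since a change in either gene moves them. Against all cultured libraries the LSEC shares of Slc2a1, Pfkp, Ldhb and Hif1a did not overlap, though for Ldhb the lowest LSEC library held 14.92% and Akt-MAC 3 held 14.82%. Those of Slc16a3, Pfkl and Pdk1 overlapped, with Slc16a3 at 14.7% in MAC 1 and Pdk1 at 14.25% in MAC 2.

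**Figure D3:**
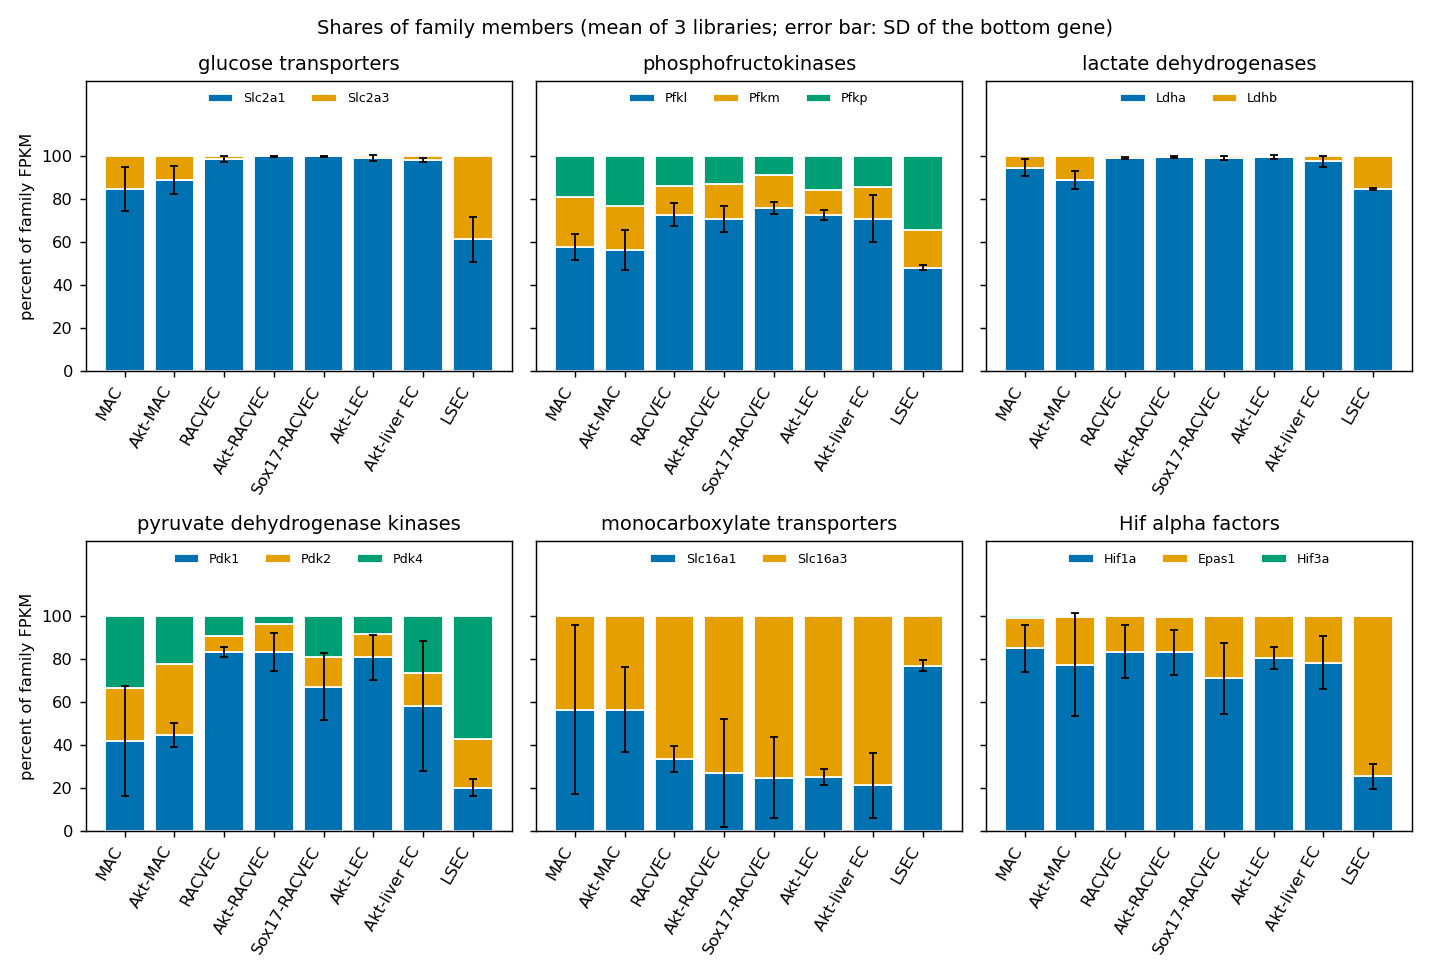
Percent of the family's FPKM (y axis) held by each gene in 6 families, by group (x axis); bars are means of 3 libraries and the error bar is the SD of the bottom gene. In the Hif alpha panel LSECs stand apart from the 7 cultured groups, with Hif1a at 25.5% ± 5.76 there against 71.1% ± 16.7 in Sox17-RACVECs, the lowest cultured group.

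Genes of neighbouring pathways were listed beside the members. Of 12 other glycolytic genes tested, 2 were called higher in Akt-liver ECs and 5 lower. For this and the lists that follow, the shares over all genes tested were 14.1% higher and 12.9% lower. Gapdh, whose level is uncertain because many near-identical copies exist, had a log2 fold change of 1.5 (SE 0.25, adjusted p = 0.000166) and the ADP-dependent sugar kinase Adpgk 2.34 (SE 0.49, adjusted p = 0.00119). Those called lower included the hexokinase Hk3, the liver pyruvate kinase Pklr and the bisphosphoglycerate mutase Bpgm. Of 6 gluconeogenic genes tested, 3 were lower (Fbp1, Pck1 and G6pc) and 0 higher, and these 3 were listed at 0 in every Akt-liver EC library. Their enzymes are known from hepatocytes, whose markers lay in all LSEC libraries, and the part of hepatocyte RNA in these values was not tested.

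Of 25 other hypoxia-induced genes, 6 were called higher and 1, Bnip3l, lower, beside 14.1% and 12.9% of all genes. The median log2 fold change of the 25 was 1.23. Angptl4, a lipase inhibitor secreted under hypoxia, read 590.4, 463 and 500.0 FPKM in Akt-liver ECs and 1.39, 1.49 and 7.24 FPKM in LSECs, with a log2 fold change of 7.14 (SE 0.89, adjusted p = 6.06e-06). The lysyl hydroxylase Plod2 had a log2 fold change of 4.66 (SE 0.55, adjusted p = 3.7e-06), and the glycogen synthase Gys1 had a log2 fold change of 3.28 (SE 0.27, adjusted p = 2.35e-08). Vldlr, a lipoprotein receptor, read 19.4, 176 and 142 FPKM against 0, 0 and 0.44 FPKM. The remaining 2 were Ak4 and Vegfa. In the citric acid cycle Mdh2 alone was called of 15 genes (1.01 (SE 0.34, adjusted p = 0.0294)) and a median of 0.02. The pentose phosphate pathway had 1 of 7 called higher, G6pdx (1.18 (SE 0.32, adjusted p = 0.00833)), and of 10 genes of pyruvate entry 2 were higher, Pdk3 and Pdp1. Both counts are small and stand beside 14.1% of all genes called higher, so no result about these pathways is read from them. Of 5 other oxygen-sensing genes and 3 other genes of monocarboxylate transport, limma called 0. At the unadjusted p with the fold limit the count was also 0, beside 16.4% of all genes higher and 14.8% lower.

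The promoters of the members, called or not, were searched for the core letters of the hypoxia response element. RefSeq promoter windows on GRCm38.p6, 250 bases before a start site, were matched by symbol for 36 of the 40 members, all but Slc2a3, Epas1, Ndrg1 and Gpd1. The letters ACGTG, or CACGT on the opposite strand, stood in at least 1 window of 21 of the 36 (58.3%) and of 18.5% of 27025 genes. GCGTG, or CACGC, stood in 24 members (66.7%) and in 30.9% of all genes. With only the first listed start of each gene, the shares were 52.8% of members and 16.6% of all genes for ACGTG, and 52.8% and 28.2% for GCGTG. A palindromic CACGTG counts once on each strand. Base composition was not adjusted for, and many members were listed as hypoxia-induced genes or known Hif targets, so the shares are descriptions. The windows of the 3 called members with the largest log2 fold changes, and of Pgk1, are shown 5′ to 3′ with both kinds of match in capitals, and their coordinates belong to GRCm38.p6.
Egln3, chr12:54203875-54204124, - strand: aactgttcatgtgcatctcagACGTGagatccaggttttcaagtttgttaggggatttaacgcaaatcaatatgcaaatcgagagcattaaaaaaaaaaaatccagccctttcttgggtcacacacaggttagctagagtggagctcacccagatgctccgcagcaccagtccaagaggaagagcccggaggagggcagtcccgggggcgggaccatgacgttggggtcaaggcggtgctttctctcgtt
Slc2a1, chr4:119108495-119108744, + strand: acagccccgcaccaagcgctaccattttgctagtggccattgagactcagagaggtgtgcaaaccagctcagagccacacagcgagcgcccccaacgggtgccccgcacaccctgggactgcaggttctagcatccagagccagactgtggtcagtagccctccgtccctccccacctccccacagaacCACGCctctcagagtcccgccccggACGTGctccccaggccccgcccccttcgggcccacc
Slc16a3, chr11:120948817-120949066, + strand: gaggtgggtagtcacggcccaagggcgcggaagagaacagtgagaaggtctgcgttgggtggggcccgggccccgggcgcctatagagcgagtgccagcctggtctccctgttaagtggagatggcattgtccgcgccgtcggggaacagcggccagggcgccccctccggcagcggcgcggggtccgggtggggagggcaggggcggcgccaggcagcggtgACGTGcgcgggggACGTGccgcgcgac
Pgk1, chrX:106186850-106187099, + strand: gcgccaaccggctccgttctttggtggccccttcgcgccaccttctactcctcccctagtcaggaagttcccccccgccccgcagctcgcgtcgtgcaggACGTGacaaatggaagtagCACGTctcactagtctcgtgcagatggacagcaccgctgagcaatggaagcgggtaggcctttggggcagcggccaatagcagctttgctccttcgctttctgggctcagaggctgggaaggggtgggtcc
Slc16a3 holds 2 matches to ACGTG, the first starting 27 bases before the start site, and Pgk1 holds 2, the first starting 150 bases before it. Slc2a1 holds 1 match to each motif, and Egln3 holds 1 to ACGTG, 229 bases before the start site. Ldha, not called, holds 5 strand matches in its first window. A match to the letters does not show binding, which was not measured here. On NCBIM37, the build of the FPKM files, Slc2a1 spans chr4:118781316-118809935 (+), Slc16a3 chr11:120809794-120822182 (+), Egln3 chr12:55279968-55304847 (-), Epas1 chr17:87153247-87232750 (+) and Pgk1 chrX:103382439-103399038 (+), all protein-coding.

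With constitutively active Akt, no member passed the threshold in either cell background. In Akt-RACVECs against RACVECs, limma called 0 of 39 members higher, beside 0.221% of all genes, and 0 lower, beside 0.0401%. At an unadjusted p below 0.05 with the fold limit, 0 were higher, beside 4.79% of all genes, and 4 lower (Car9, Aldoc, Pfkfb4 and Eno2), beside 5.24%. The study's criterion gave 0 in either direction, beside 1.6% and 1.82%. Slc2a1 read 659, 258 and 739 FPKM in RACVECs and 626, 1711 and 506 FPKM in Akt-RACVECs, with a log2 fold change of 0.7 (SE 0.52, adjusted p = 0.544) and a 95% interval from -0.38 to 1.79. Akt-RACVEC 2 stood far above the others, and the groups overlapped. Hk2 read 172, 48.8 and 139 FPKM in RACVECs and 97.5, 73.3 and 40.5 FPKM in Akt-RACVECs, with a log2 fold change of -0.66 (SE 0.49, adjusted p = 0.547). Aldoa, among the most abundant members, had an interval from -0.89 to 0.27, and Pkm one from -1.24 to 0.38. All 9 genes from aldolase to pyruvate had values below 0, with a median of -0.43, and none was called. They were measured in the same libraries, so these signs are not independent.

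The members with the largest differences were low in Akt-RACVECs. Car9, a cell-surface carbonic anhydrase, read 709, 466 and 128 FPKM in RACVECs and 166, 10.3 and 13.9 FPKM in Akt-RACVECs, with a log2 fold change of -3.52 (SE 1.23, adjusted p = 0.172). The lowest RACVEC library lay below the highest Akt-RACVEC library, so the groups overlapped. Aldoc read 56.7, 9.2 and 6.97 FPKM against 4.14, 0 and 0 FPKM, with a log2 fold change of -3.28 (SE 1.12, adjusted p = 0.166). Pfkfb4, a hypoxia-induced Pfkfb isoform, read 15.2, 8.57 and 7.36 FPKM against 1.69, 2.17 and 0 FPKM, with a log2 fold change of -2.42 (SE 0.85, adjusted p = 0.173). For Aldoc and Pfkfb4 every RACVEC library exceeded every Akt-RACVEC library, but the values were low. In the remaining roles the largest was Slc2a3 at -1.12, Ldhb at -2.55, Slc16a1 at -1.08 and Egln3 at 1.11, with adjusted p from 0.389 to 0.634.

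In Akt-MACs against MACs, limma again called 0 members higher, beside 2.59% of all genes, and 0 lower, beside 0.214%. Unadjusted with the fold limit, 2 were higher (Ndrg1 and Hk2), beside 7.54% of all genes, and 1 lower (Gpd1), beside 2.19%. The study's criterion gave 2 higher, Ndrg1 and Ldhb, beside 0.748%, and 0 lower, beside 0.287%. Ndrg1 read 61.4, 60.1 and 221 FPKM in MACs and 846, 1361 and 812 FPKM in Akt-MACs, with a log2 fold change of 3.37 (SE 0.99, adjusted p = 0.079). Every Akt-MAC library exceeded every MAC library, and without MAC 3 Ndrg1 was called at 3.99 (adjusted p = 0.0485). Hk2 read 53.2, 20.8 and 34.7 FPKM in MACs and 54.6, 59.4 and 119 FPKM in Akt-MACs without overlap, with a log2 fold change of 1.09 (SE 0.49, adjusted p = 0.323). Slc2a1 had an interval from -0.96 to 1.21 and Aldoa one from -0.27 to 0.88. Gpd1 read 17.9, 645 and 287 FPKM in MACs and 38.5, 141 and 1.49 FPKM in Akt-MACs. Of the other lists Hk3, a hexokinase of myeloid cells, was called higher at 5.97 (SE 1.23, adjusted p = 0.0123), with 5.23, 136 and 291 FPKM in Akt-MACs and 0 in all MACs. Macrophage markers were highest in Akt-MAC 2 and Akt-MAC 3, and their part in these values was not tested. With MAC 2, Akt-MAC 2 and Akt-MAC 3 left out, 1 Akt-MAC library would stand against 2 MAC libraries, and nothing is read from that fit.

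Averaged over MACs and RACVECs, 0 members were called with against without myristoylated Akt, beside 1.36% of all genes called higher and 0.334% called lower. Car9, lower, was the only member past the fold limit at the unadjusted p, beside 6.25% of all genes higher and 3.33% lower, with a log2 fold change of -2.38 (SE 0.87, adjusted p = 0.146). The intervals were from -0.35 to 1.18 for Slc2a1, -0.41 to 0.41 for Aldoa and -0.52 to 0.94 for Hk2. Testing the Akt effect in RACVECs minus that in MACs, limma called 0 members, beside 0.1% of all genes, and 5 passed unadjusted with the fold limit. All 5 lay below 0 (Ndrg1, Aldoc, Pfkfb4, Hk2 and Pfkfb2), beside 7.04% of all genes below and 3.09% above. Ndrg1 had the largest value, -5.24 (SE 1.41, adjusted p = 0.135), and read 257, 284 and 467 FPKM in RACVECs and 42.3, 434 and 36.7 FPKM in Akt-RACVECs. A different response of Ndrg1 to Akt in the 2 backgrounds was thus not shown.

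**Figure D4:**
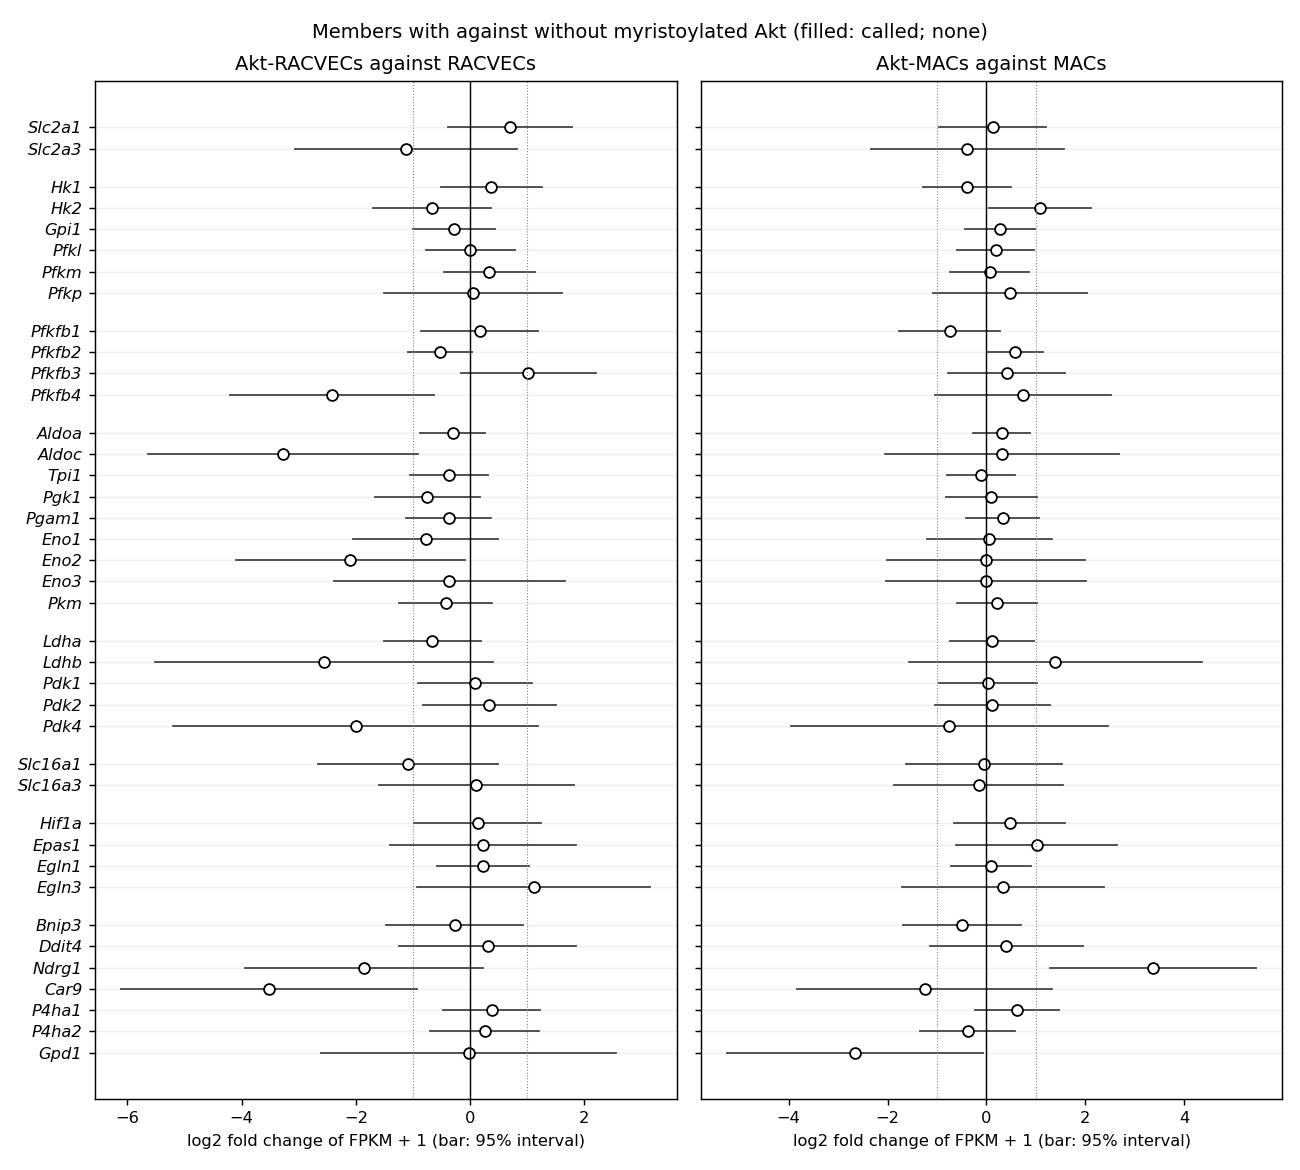
Log2 fold change of FPKM + 1 (x axis) of the 39 members tested, Akt-RACVECs against RACVECs (left) and Akt-MACs against MACs (right), grouped by role; bars are 95% intervals and open points were not called. No point is filled, and Ndrg1 lies at -1.87 on the left and at 3.37 on the right.

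The conversion of amniotic cells came with lower Gpd1 and Slc2a3. In RACVECs against MACs, limma called 2 members lower, beside 1.35% of all genes, and 0 higher, beside 1.36%. Gpd1 read 17.9, 645 and 287 FPKM in MACs and 1.34, 0.47 and 0 FPKM in RACVECs, with a log2 fold change of -6.66 (SE 1.23, adjusted p = 0.00517), a value that depends on the pseudocount because RACVECs are near 0. MAC 2, the highest, also held Adipoq and Plin1, and the part of adipocyte RNA was not tested, and with MAC 2 left out both calls stood. Slc2a3 read 57.6, 9.8 and 203 FPKM in MACs and 2.83, 7.2 and 2.01 FPKM in RACVECs, with a log2 fold change of -3.47 (SE 0.93, adjusted p = 0.0493). MAC 3, the library with the largest sum of neural markers, was highest in Slc2a3, and without it Slc2a3 was not called (adjusted p = 0.202). Leaving out any 1 of MAC 1, RACVEC 1, RACVEC 2 or RACVEC 3 also ended the call of Slc2a3 (adjusted p from 0.0829 to 0.168). With only the compared groups in the fit, neither was called. Medium differed between the groups along with the 3 factors, and these cannot be told apart.

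Members with positive values in RACVECs did not pass the adjusted threshold. At the unadjusted p with the fold limit, 9 were higher, beside 5.45% of all genes, and 4 lower, beside 7.15%. The study's criterion gave 2 higher, Pgk1 and Pdk1, beside 1.42%, and 1 lower, Ldhb, beside 1.39%. Pdk1, which restrains pyruvate oxidation, read 73.8, 59.6 and 182 FPKM in MACs and 312, 255 and 254 FPKM in RACVECs, with a log2 fold change of 1.54 (SE 0.47, adjusted p = 0.0873). Pgk1 read 402, 192 and 613 FPKM against 1001, 876 and 985 FPKM, with a log2 fold change of 1.39 (SE 0.44, adjusted p = 0.0935). All RACVEC libraries stood above all MAC libraries for both. Hk2 had a log2 fold change of 1.61 (SE 0.49, adjusted p = 0.0834), Hif1a 1.6 (SE 0.53, adjusted p = 0.111) and Car9 3.57 (SE 1.23, adjusted p = 0.122). Without MAC 3, Gpi1, Pdk1 and Slc16a3 were called higher, and without RACVEC 2 Hk2 was. From the other lists, Gapdh was higher at 1.15 (SE 0.25, adjusted p = 0.0157), the phosphoglucomutase Pgm2 at 1.24 (SE 0.3, adjusted p = 0.0273) and the succinate-CoA ligase subunit Suclg2 at 1.35 (SE 0.31, adjusted p = 0.0225). Ero1a, a hypoxia-induced oxidase of protein folding, read 151, 59 and 610.1 FPKM in MACs and 3262, 1073 and 2953 FPKM in RACVECs, with a log2 fold change of 3.62 (SE 0.65, adjusted p = 0.00426).

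Sox17-RACVECs against RACVECs gave no call among members, 0 higher beside 0% of all genes and 0 lower beside 0.00668%. Unadjusted with the fold limit, 0 were higher, beside 1.32% of all genes, and 4 lower (Aldoc, Bnip3, Ndrg1 and Slc16a1), beside 3.38%. The study's criterion gave 0 in either direction, beside 0.321% and 0.662%. The median log2 fold change was -0.58 over the members and -0.02 over all genes tested. Values were below 0 for 36 of the 39. All were measured against the same 3 RACVEC libraries, so these signs are not independent and the count is a description. Ndrg1 read 367, 24.9 and 23.4 FPKM in Sox17-RACVECs, where replicate 1 lay within the RACVEC range of 257 to 467 FPKM and the other two far below it. Bnip3, a mitophagy receptor, read 542, 323 and 829 FPKM in RACVECs and 128, 294 and 167 FPKM in Sox17-RACVECs, without overlap, with a log2 fold change of -1.5 (SE 0.57, adjusted p = 0.616). Hif1a reached 2405 FPKM in Sox17-RACVEC 2 and 327 and 511 FPKM in the other two. That library also had Pecam1 at 5144 FPKM against 586 and 714 FPKM. The 3 RACVEC libraries serve also in the comparisons with Akt-RACVECs and with MACs.

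Between cultured lung and liver ECs, limma called 0 members higher in Akt-LECs, beside 0% of all genes, and 0 lower, beside 0.0134%. Unadjusted with the fold limit the counts were 0 and 0, beside 1.12% and 1.67%, and the study's criterion gave 1 higher, the lactate carrier Slc16a1, beside 0.174%, and 0 lower, beside 0.374%. It read 161, 113 and 134 FPKM in Akt-LECs and 88.7, 26.7 and 63.5 FPKM in Akt-liver ECs, with a log2 fold change of 1.32 (SE 0.75, adjusted p = 1). Slc2a1 read 490.0, 303 and 421 FPKM in Akt-LECs, and its interval ran from -1.17 to 1.0. Hif1a read 635, 1252 and 755 FPKM in Akt-LECs, above every Akt-liver EC library, with a log2 fold change of 0.99 (SE 0.53, adjusted p = 1).

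Across the 7 cultured groups, 11 of the 39 members differed by a moderated F test at an adjusted p below 0.05, beside 27% of all genes. These were Slc2a3, Pfkfb2, Pfkfb4, Aldoc, Eno2, Ldhb, Pdk1, Bnip3, Ndrg1, Car9 and Gpd1, and without Akt-MAC 2 the count was 7. Slc2a1, both hexokinases, Aldoa, Tpi1, Pgk1, Pgam1, Pkm and Ldha were not among them, with adjusted p of 0.32 for Slc2a1, 0.558 for Pkm and 0.167 for Ldha. Eno2 read 93.2, 69.9 and 169 FPKM in MACs, 242, 105 and 42.1 FPKM in Akt-MACs and at most 37.4 FPKM in any other cultured library. Ldhb likewise ran from 118 to 158 FPKM in MACs and 287 to 490.3 FPKM in Akt-MACs, and every other cultured library lay below the lowest MAC library, at 17.2 to 46.8 FPKM in RACVECs and 9.66 to 107 FPKM in Akt-liver ECs. Pfkfb4 read 119, 38.4 and 35.2 FPKM in Akt-MACs and at most 15.2 FPKM in RACVEC-type and EC cultures. Pdk1 read 254 to 312 FPKM in RACVECs, 187 to 514 FPKM in Akt-RACVECs and 59.6 to 182 FPKM in MACs. MACs did not stand apart for Pdk1, with a mean of 105.3 FPKM beside 109.2 FPKM in Akt-liver ECs. Its mean was 149.3 FPKM in Akt-LECs and 148.8 FPKM in Sox17-RACVECs.

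**Figure D5:**
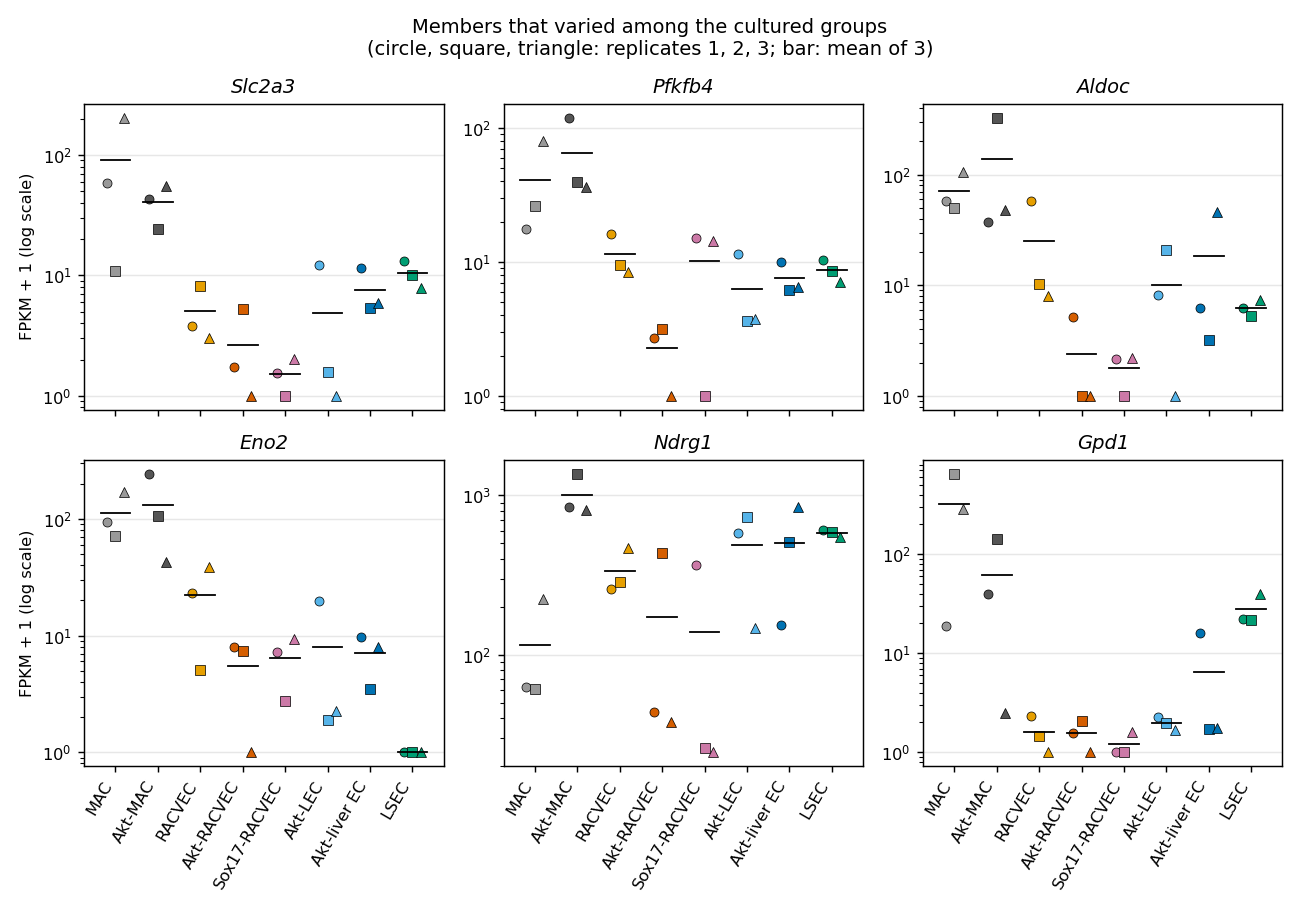
FPKM + 1 on a log scale (y axis) of 6 members by group (x axis), each point a library and each bar a mean of 3. MAC and Akt-MAC points lie above most other cultured groups for Slc2a3, Pfkfb4, Aldoc and Eno2, and Gpd1 reaches 645 FPKM in MAC 2.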

How the data were processed

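Poly(A) RNA of 24 libraries was sequenced as paired reads of 51 bp. The submitters' processing notes name TopHat, Cufflinks and mm9, with no versions. The authors deposited FPKM from Cufflinks, with upper-quartile normalization and bias correction, as 1 value per RefSeq transcript. Read numbers are not given in the sources used here, so depth per library is unknown and no counting error can be given; a value of 0 may be a failed estimate. Of 27583 transcripts, 26934 were joined to a current symbol and 649 kept as genes of their own, which gave 22282 genes after summing. Copies of glycolytic genes elsewhere in the genome may take reads.

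The 8 groups followed the titles, and the codes that head the value columns were not used. limma 3.58.1 in R 4.3.3 was fitted to log2(FPKM + 1) over all libraries, with a trend on the mean, and the 14964 genes whose mean FPKM reached 1 were kept. Tests were two-sided with Benjamini-Hochberg adjustment, and calls needed an adjusted p under 0.05 with a log2 difference beyond 1 in size. The script was tested on simulated data. The study's criterion (mean FPKM differing by more than 1 on the log2 scale, with an unequal-variance p left unadjusted) was computed beside it. Here FPKM was summed per gene and 1 was added to each mean before the ratio. In RACVECs against MACs the criterion then gave 212 genes higher and 208 lower, fewer than the study reports, so the study's own lists are not reproduced. Alternatives were pseudocounts of 0.1 and 10, other filters, scaling, 1 transcript per gene, fewer groups, a replicate block and leaving out libraries; leaving out those with markers of other cells was chosen after seeing the data. Values per library are given for called members, and otherwise for the member of each role with the largest log2 fold change or those the comparison turns on. Replicates are separate isolates by the study's methods, while the labels do not say. The limma p-values set a difference between groups against the spread among libraries of a group, pooled over all groups in the fit. The members and lists were chosen with earlier results of these data known. Some genes of the lists are not reported here. Tables and figures used Python 3.11.15, pandas 2.3.3 and matplotlib 3.10.9.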

Additional observations from a re-analysis of the deposited data

How the results depend on the processing

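In Akt-liver ECs against LSECs, the study's criterion gave 7 members higher in place of 13 and 2 lower in place of 1, and a pseudocount of 10 also gave 2 lower. Leaving out 1 library at a time gave 11 to 14 higher and 0 to 3 lower. Of the 14 members called there, 0 turned direction under any alternative. In Akt-MACs against MACs the criterion gave 2 higher, and leaving out 1 library gave 0 to 1. In RACVECs against MACs the criterion gave 2 higher and 1 lower, and leaving out 1 library gave 0 to 3 higher and 1 to 2 lower. There 1 member was lower with a pseudocount of 0.1, with no filter, with a mean FPKM of at least 10 or with the highest transcript only, and 0 with only the groups compared. In Akt-LECs against Akt-liver ECs the criterion gave 1 higher. The count of members that differed among cultured groups ran from 7 to 16, that of LSEC libraries above all cultured ones from 0 to 1. Fits with a replicate block held only the groups compared. RACVECs against MACs had 0 members lower with the block and 0 without it in that fit, so the fall from 2 came with the groups left out. In the liver comparison that fit gave 15 higher and 1 lower, and 13 and 1 with the block. Against the counts reported, the block lost Eno1 and gained Hif1a there, and without the block Hif1a and Car9 were gained and 0 lost. In the remaining comparisons 0 members were called with the block, as reported. The numbers share no stated origin, and deviations of same-numbered libraries correlated at a mean of -0.11 to 0.30 over comparisons. The highest mean was that of Akt-LECs against Akt-liver ECs, with 0.57, 0.37 and -0.05 for numbers 1, 2 and 3. Whether same-numbered libraries of those groups share an origin was not tested. Since no origin is stated, the numbers were not taken to pair the samples. Depth is unknown, which limits members near 0 FPKM most.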
